A study of Mus musculus with 4 samples.

Results

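The 6 genes described here are Ahr, which encodes the aryl hydrocarbon receptor, its dimer partner Arnt, and 4 classical target genes of the receptor, Cyp1a1, Cyp1b1, Ahrr and Tiparp. They were chosen by name among the 37583 features of each library, and all 6 were found under these symbols. RNA was sequenced from naive CD4+ T cells sorted from the spleens of C57BL/6 mice and stimulated through CD3 and CD28 on coated plates for 24 h. Every culture received IL-1β (10 ng/ml), IL-6 (10 ng/ml), IL-23 (20 ng/ml) and neutralising antibodies against IL-4 and IFN-γ (10 µg/ml each), a Th17-driving mixture without added TGF-β that the labels call aTh17. One library came from cells given 1.5 µM DMAT and another from cells given 1 µM CX4945, both inhibitors of the protein kinase CK2, and the titles name an inhibitor-free control library for each. Each of the 4 groups is therefore 1 library, and the labels do not say how many animals or cultures stand behind it or what solvent the controls received.

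As background, the aryl hydrocarbon receptor is a ligand-activated transcription factor of the bHLH-PAS family. It rests in the cytosol in a complex with HSP90 and p23, binds planar ligands such as dioxins or tryptophan derivatives, moves to the nucleus and pairs with ARNT on DNA elements that hold the core GCGTG. Among T helper cells it is known for its high level in Th17 cells, where its ligands favour IL-22. Its most sensitive targets form a feedback loop: CYP1A1 and CYP1B1 are monooxygenases that break down ligands, AHRR is a repressor that competes for ARNT, and TIPARP is a mono-ADP-ribosyltransferase that modifies the receptor and limits its activity.

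The letters before the starts of the 4 target genes are shown because the receptor acts through elements that hold the core. A marked copy is a match of letters only, and binding was not measured. Each line gives the 250 bases before the annotated start, 5′ to 3′ on the strand of the gene, from RefSeq on the build GRCm38.p6, with the core GCGTG, or CACGC where it lies on the other strand, in capitals. The windows are chr9:57697363-57697612 (plus strand) for Cyp1a1, chr17:79715062-79715311 (minus strand) for Cyp1b1, chr13:74292332-74292581 (minus strand) for Ahrr and chr3:65528197-65528446 (plus strand) for Tiparp.
Cyp1a1: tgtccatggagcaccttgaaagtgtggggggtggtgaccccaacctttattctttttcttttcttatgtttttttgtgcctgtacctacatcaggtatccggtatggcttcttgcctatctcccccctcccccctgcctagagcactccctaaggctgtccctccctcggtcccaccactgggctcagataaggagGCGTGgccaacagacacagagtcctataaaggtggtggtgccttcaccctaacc
Cyp1b1: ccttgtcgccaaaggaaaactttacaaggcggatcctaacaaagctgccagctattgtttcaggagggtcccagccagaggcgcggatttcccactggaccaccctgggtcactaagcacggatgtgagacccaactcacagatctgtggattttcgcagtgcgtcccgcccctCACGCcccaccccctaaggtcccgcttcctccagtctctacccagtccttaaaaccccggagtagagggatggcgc
Ahrr: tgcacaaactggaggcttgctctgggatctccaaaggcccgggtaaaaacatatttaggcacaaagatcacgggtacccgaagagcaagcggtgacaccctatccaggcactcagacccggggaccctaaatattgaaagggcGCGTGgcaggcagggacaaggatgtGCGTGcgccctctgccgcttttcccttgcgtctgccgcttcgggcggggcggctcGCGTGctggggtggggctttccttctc
Tiparp: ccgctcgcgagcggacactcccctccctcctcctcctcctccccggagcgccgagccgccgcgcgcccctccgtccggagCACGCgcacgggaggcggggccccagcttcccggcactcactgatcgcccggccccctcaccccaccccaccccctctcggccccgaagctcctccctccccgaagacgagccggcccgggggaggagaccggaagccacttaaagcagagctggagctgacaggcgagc

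The core occurred once in the windows of Cyp1a1, Cyp1b1 and Tiparp, beginning 54, 76 and 170 bases before the start. Ahrr held it 3 times, beginning 107, 82 and 27 bases before its start. The window of Arnt, which is not a classical target, also held it once, 29 bases before the start, and Ahr has no entry in the promoter table. Both strands were searched. The core is common: 28.2% of the 32851 promoter windows in the table held at least 1 copy and 2.77% held 3 or more. The longer form TNGCGTG, which contains the core, was found in 4.1% of all windows and among the 5 windows searched only in that of Ahrr, once. The E-box CACGTG was found in 6.02% of all windows and in none of the 5. The well-studied enhancer of Cyp1a1 lies farther upstream than this window.

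In the DMAT experiment the control library had 2772525 reads in exons and the treated one 2523446, and in the CX4945 experiment these were 2285545 and 2056635. Levels are given as CPM, the usual depth-normalised count, which is not corrected for gene length. At this depth 3 reads were worth 1.09 to 1.46 CPM, and intervals cover counting error only. In bulk RNA, fewer cells expressing a gene and less RNA per cell cannot be told apart. The T cell markers Cd3d, Cd3e, Cd3g, Cd4, Cd28, Lck and Thy1 summed to 1785 to 1896 CPM in every library. The CD8 T cell markers Cd8a and Cd8b1 summed to 2.36 to 4.88 CPM, mostly Cd8b1. Of the 5 B cell markers Cd79b and Ms4a1 were at 0 throughout and the sum stayed at or below 1.45 CPM, all 5 erythroid markers were at 0, and of the 6 NK and innate lymphoid markers only Id2, which T cells also express, had more than 1 read in a library. Among 10 myeloid and dendritic markers Lyz2, Itgam, Itgax and H2-Aa were at 0, and the sum, nearly all Cd74, was 9.05 CPM in the control for DMAT and 3.54 with DMAT, and 14.9 in the control for CX4945 and 16.6 with CX4945. Its part in the values below was not tested.

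Compared per kilobase of exon, the 6 genes differed in level. Tiparp was highest, at 11.1 to 14.5 CPM per kilobase over the 4 libraries, followed by Arnt at 5.85 to 6.88, and neither range overlapped that of any other gene of the 6. Cyp1a1 (2.17 to 5.59) and Ahr (1.49 to 4.53) overlapped each other, as did Cyp1b1 (0.504 to 1.31) and Ahrr (0.375 to 0.838). Compared within each library, Cyp1a1 and Ahr changed order between the experiments. Cyp1b1 lay above Ahrr in all 4 libraries, each value resting on 16 reads or fewer, and this order was not tested. Nearly all reads of the 6 genes were unique, from 97.8% for Cyp1a1 to 100% for Ahr, Ahrr and Cyp1b1. Reads across exon junctions made up 24.2% of the exon reads of Arnt, 16.9% of those of Cyp1a1, 14.3% for Ahrr, 10.2% for Ahr and 6.53% for Tiparp. Cyp1b1 had 0 junction reads among 42 exon reads, which allows a share of up to 7.14%.

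**Figure D1:**
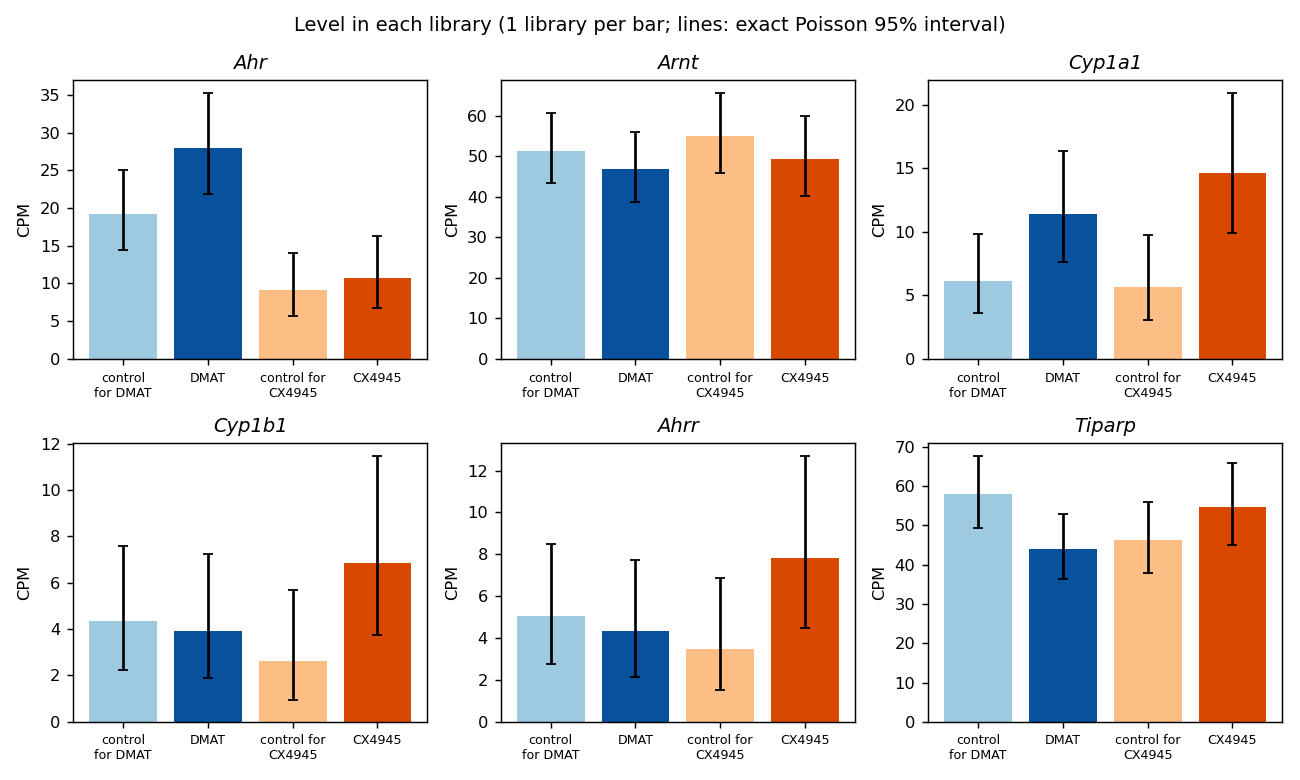
Level of each of the 6 genes in the 4 libraries, in CPM, 1 library per bar, with exact Poisson 95% intervals as lines (counting error only). Cyp1a1 stands higher in both inhibitor libraries than in both controls, and Cyp1b1 and Ahrr are highest with CX4945. Ahr stands higher in both libraries of the DMAT experiment than in both of the CX4945 experiment. The share of all genes with such orders was not counted.

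The receptor gene itself differed by a larger ratio between the controls than with either inhibitor. The counting intervals of these ratios overlap, and the comparison was not tested. Ahr (mm9 chromosome 12, 36182646 to 36219710) had 53 exon reads in the control for DMAT, 71 with DMAT, 21 in the control for CX4945 and 22 with CX4945. In CPM these are 19.2, 27.9, 9.18 and 10.7, so both libraries of the DMAT experiment lay above both of the CX4945 experiment. How many of all genes share that order was not counted. The control for CX4945 stood 2.09-fold below that for DMAT (95% counting interval 1.24 to 3.65), a log2 ratio right at the 2-fold limit that misses it under both other scalings. Of 9564 genes compared between the controls, 1.33% were at least 2-fold lower in that for CX4945. With DMAT Ahr was at 1.46 times its control (1.01 to 2.12) and with CX4945 at 1.17 times (0.614 to 2.24). Which control is used decides the sign for CX4945: its log2 ratio was 0.21 against its own control and -0.79 against the other, while that of DMAT was 0.52 and 1.52.

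Arnt, the partner shared by the receptor and the hypoxia-inducible factors, had the narrowest range of the 6 relative to its level. It lies on mm9 chromosome 3 from 95238310 to 95301162 and had 142, 119, 126 and 101 reads in the order above, or 51.4, 46.8, 55.1 and 49.3 CPM. The 4 counting intervals all overlap. Its ratio to control was 0.911 with DMAT (0.708 to 1.17) and 0.895 with CX4945 (0.682 to 1.17), and both intervals include 1.

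Cyp1a1 was the gene of the 6 that stood higher with both inhibitors by the widest margin. The gene (mm9 chromosome 9, 57545420 to 57551629) had 17 reads in the control for DMAT and 29 with DMAT, 6.16 and 11.4 CPM. It had 13 reads in the control for CX4945 and 30 with CX4945, 5.68 and 14.6 CPM. The 2 controls were thus close to each other, at a ratio of 0.923 (0.412 to 2.02), and both inhibitor libraries lay above both controls. The share of all genes with this order was not counted. The ratio to control was 1.85 with DMAT (0.985 to 3.6) and 2.58 with CX4945 (1.3 to 5.38), of which the second interval lies above 1 and the first just reaches it. With the controls exchanged the log2 ratios were 0.91 for DMAT and 1.15 for CX4945, against 0.81 and 1.25 with the named controls. Junction reads of Cyp1a1 numbered 1 and 6 in the DMAT experiment and 3 and 5 in the other, control first. Its neighbour and paralogue Cyp1a2, a liver enzyme, had 1 read in all 4 libraries together.

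Cyp1b1, the second ligand-degrading monooxygenase, was at a low level, and its reads were fewest in the control for CX4945 and most with CX4945. It lies on mm9 chromosome 17 from 80106234 to 80114401 and had 12 reads in the control for DMAT, 10 with DMAT, 6 in the control for CX4945 and 14 with CX4945 (4.35, 3.93, 2.62 and 6.83 CPM). All 4 counting intervals overlap. The ratio to control was 0.905 with DMAT (0.35 to 2.29) and 2.61 with CX4945 (0.941 to 8.27), and both intervals include 1. Against the control for DMAT the log2 ratio with CX4945 was 0.57 in place of 1.15.

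Ahrr, the repressor, had its libraries in the same order of level as Cyp1b1, a likeness that was not tested. On mm9 chromosome 13 from 74348566 to 74429779, it had 14, 11, 8 and 16 reads in the same order (5.07, 4.33, 3.5 and 7.81 CPM). Here too the CX4945 library was the highest and its control the lowest. The ratio to control was 0.854 with DMAT (0.351 to 2.02) and 2.23 with CX4945 (0.902 to 6.03), with 1 inside both intervals. Against the control for DMAT the log2 ratio with CX4945 was 0.55 in place of 0.998.

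Tiparp, the most abundant of the target genes, had its libraries in another order. It had 160, 112, 106 and 112 reads (mm9 chromosome 3, 65332332 to 65359067), which is 57.9 CPM in the control for DMAT, 44.1 with DMAT, 46.3 in the control for CX4945 and 54.7 with CX4945. The inhibitor and control libraries overlap: the highest and the second lowest values are both controls. With DMAT the ratio was 0.761 (0.592 to 0.974), and with CX4945 it was 1.18 (0.897 to 1.55). With the controls exchanged both log2 ratios were close to 0, at -0.07 for DMAT and -0.08 for CX4945. An uncharacterised transcript that overlaps the start of Tiparp, 4931440P22Rik, had 4 reads in all.

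**Figure D2:**
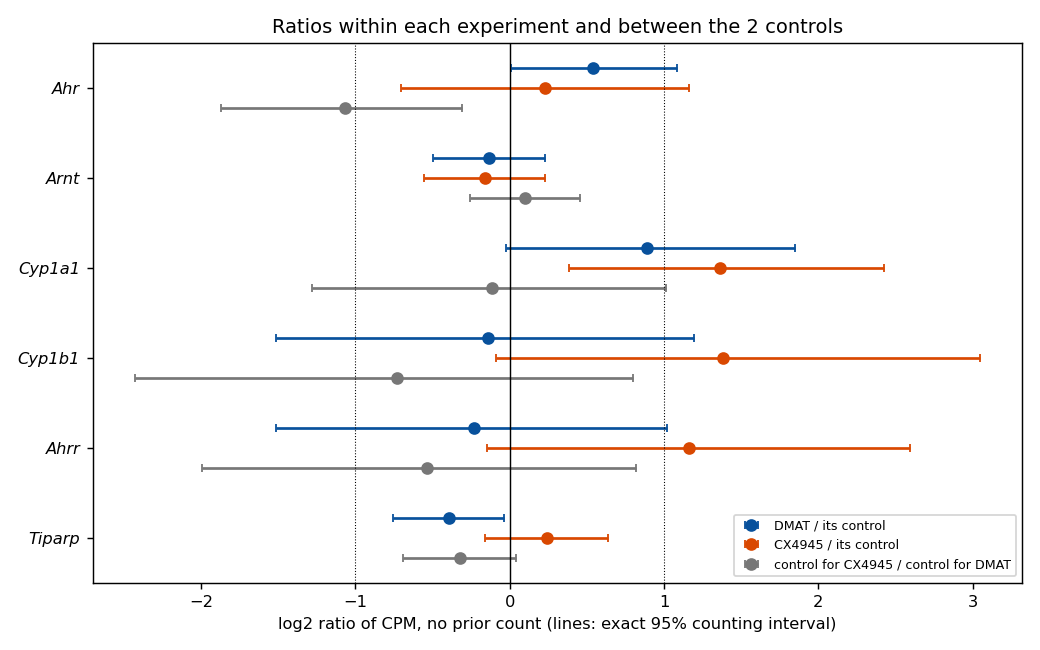
Log2 ratios of CPM, without a prior count, for DMAT and CX4945 against their named controls and for 1 control against the other, with exact 95% counting intervals and dotted lines at 2-fold. With DMAT the interval of Ahr lies just above 0 and that of Tiparp below 0. With CX4945 the interval of Cyp1a1 alone lies above 0, and between the controls that of Ahr alone lies below 0.

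A gene was counted as changed in size, with no test, when 20 or more reads fell in the pair of libraries and its log2 ratio with a prior count of 2 was at least 1 in either direction. With DMAT 0 of the 6 genes reached 2-fold, where 2.37% of 9649 genes did. With CX4945, where 1.78% of 9358 genes were at least 2-fold apart in either direction, Cyp1a1 (log2 ratio 1.25) and Cyp1b1 (1.15) were at least 2-fold higher, and Ahrr lay just outside at 0.998. The background for the upward direction was 0.855% of these genes. Low counts spread more: among the 1580 genes with 20 to 60 reads in the CX4945 pair 3.73% were at least 2-fold higher, and of the 4 genes described here in that range, Ahr, Ahrr, Cyp1a1 and Cyp1b1, 2 were. Cyp1b1 entered with exactly 20 reads, 6 in the control and 14 with CX4945. It thus met the read limit only through the library where it was higher. Its call therefore gives no support beside the background share, and its counting interval includes 1. With the control of the DMAT experiment in place of its own, 1 of the 6, Cyp1a1, remained at least 2-fold higher with CX4945.

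The median log2 ratio of the 6 genes was -0.13 with DMAT and 0.62 with CX4945, beside 0.00 over all genes tested in each pair. With CX4945 5 of the 6 were above 0, beside 4626 of all 9358 genes tested. With DMAT 2 of the 6 were, Ahr and Cyp1a1, beside 4828 of 9649. The plot of all genes shows where these values lie at their read counts.

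**Figure D3:**
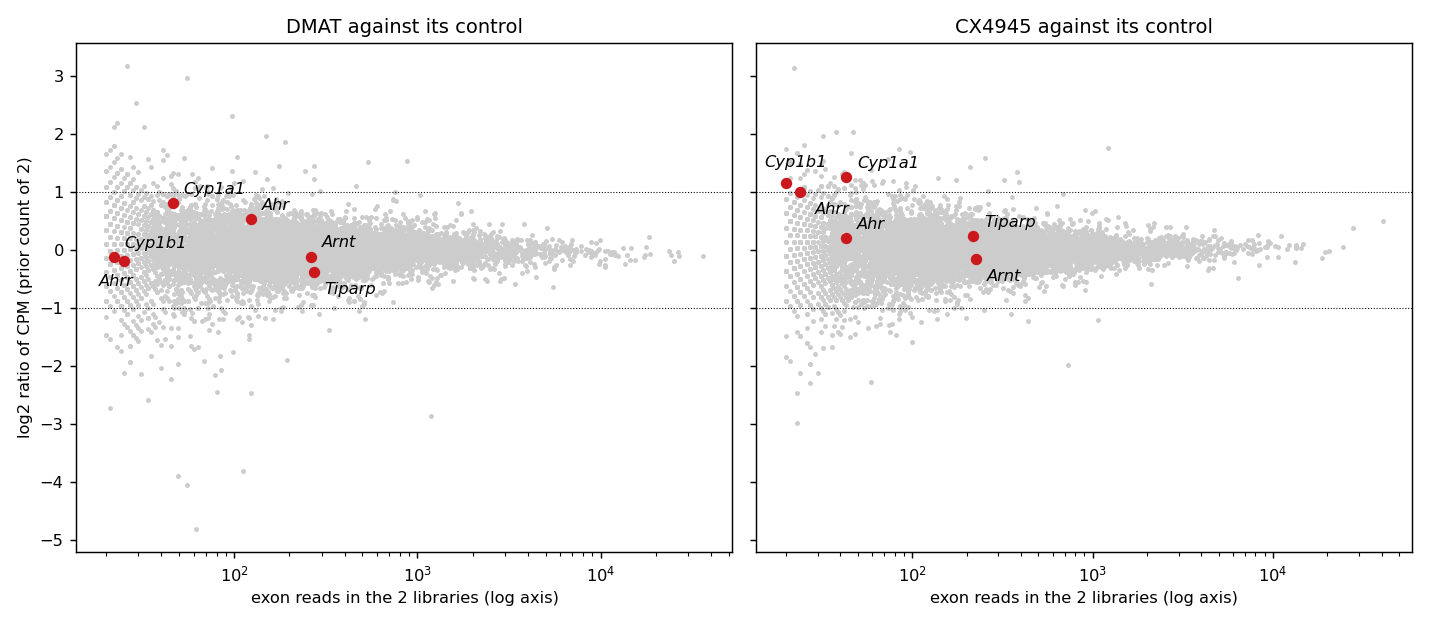
Log2 ratio of CPM (prior count of 2) against the exon reads in the 2 libraries of a pair, on a log axis, for all genes with at least 20 reads (grey) and the 6 genes described (red), with dotted lines at 2-fold. The spread widens towards low counts, where Cyp1b1, Ahrr and Cyp1a1 lie: all 3 sit near or above the upper line with CX4945, and with DMAT Cyp1a1 is the highest of the 6.

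When both experiments were fitted together, with each inhibitor library paired with its named control, none of the 6 genes passed the test. The quasi-likelihood test of edgeR was used, adjusted by the method of Benjamini and Hochberg (BH) over 9538 genes, of which 0.954% passed. Cyp1a1 came nearest, with a log2 fold change of 1.12 ± 0.39 (SE; unadjusted p = 0.00669, BH adjusted p = 0.267), higher in 2 of 2 inhibitor libraries. It was the 1 gene of the 6 with an unadjusted p under 0.05, a level reached by 7.72% of all genes. Cyp1b1 stood at 0.56 ± 0.54 (adjusted p = 0.907), Ahrr at 0.44 ± 0.50 (0.931), Ahr at 0.44 ± 0.30 (0.817), Arnt at -0.14 ± 0.17 (0.936) and Tiparp at -0.09 ± 0.18 (0.97). DESeq2 with the same pairing also called 0 of the 6. The spread behind these p-values is how far the 2 inhibitor-to-control ratios of a gene disagree. That leaves 1 residual degree of freedom per gene, plus what is shared across genes (median prior degrees of freedom 39.1). It is not a spread between replicates and may be technical, and a difference between the compounds counts towards it. The fit treats both inhibitors as 1 condition.

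The genes whose pattern over the 4 libraries lay closest to that of Ahr were Zfp948, 9030617O03Rik and Dennd2c. Likeness was the Euclidean distance of mean-centred log2 CPM over the 4 libraries, among 8333 genes with at least 100 reads, and these 3 lay at 0.15, 0.18 and 0.24. Zfp948 had 71 reads in the control for DMAT, 95 with DMAT, 32 in the control for CX4945 and 33 with CX4945. Closest to Cyp1a1 were Pelo, a ribosome rescue factor, at 0.32, and 2410017P09Rik and Btbd2, both at 0.39. Pelo had 56, 80, 46 and 75 reads in the same order. With 4 libraries such a ranking is a description only.

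The wider machinery of the receptor was covered by 6 gene lists with 72 genes, of which 40 had enough reads for the joint fit. None of the 40 passed (edgeR quasi-likelihood, BH; 0 with DESeq2), and 3 (7.5%) had an unadjusted p under 0.05, which is close to the 7.72% of all genes. No gene of these lists with 20 or more reads in a pair reached 2-fold in that pair, where 2.37% of all genes did with DMAT and 1.78% with CX4945, so a count of 0 is near the background. In the cytosolic complex 4 of the 5 listed genes had enough reads to be tested. Hsp90ab1, the constitutive HSP90 isoform that holds the receptor, stood at a log2 ratio of -0.11 with DMAT and of 0.04 with CX4945, and its inducible relative Hsp90aa1 -0.25 and -0.12 (17.3% of its reads were unique). The list median was -0.09 with each inhibitor.

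Among the other bHLH-PAS genes and their circadian partners, 7 of 16 were tested, and the list median was -0.09 with DMAT but 0.24 with CX4945. Hif1a, the oxygen-regulated subunit that also pairs with ARNT, stood at 0.17 and -0.32 with 25% of reads unique, and the clock gene Per1 at -0.19 and 0.50. Npas4, an activity-induced factor best known from neurons and singled out after its values were seen, had 57 reads in the control for DMAT, 79 with DMAT, 72 in the control for CX4945 and 110 with CX4945. Its joint log2 fold change was 0.69 ± 0.21 (adjusted p = 0.13). Arnt2, Npas3 and Sim1 had no reads. All 11 coactivators and corepressors were tested, with medians of 0.02 and -0.01. The corepressor Ncor1 stood at 0.09 and 0.11, and Smarca4, a chromatin remodelling ATPase, at -0.08 and 0.15.

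Most other enzymes of the classical receptor battery had few or no reads in these cells. Of the 12 genes of this list, the detoxifying enzymes Aldh3a1, Ugt1a6a, Ugt1a6b, Ugt1a7c, Gsta1 and Gsta2 were at 0 in every library, a count of 0 that allows up to 1.09 to 1.46 CPM, and Nqo1, a quinone reductase, had 5 reads in all. The 3 genes tested, Por, Cyb5a and Nfe2l2, had 388 to 505 reads each over the 4 libraries, and their medians were -0.26 with DMAT and -0.02 with CX4945. Por, the reductase that feeds electrons to CYP1 enzymes, stood at -0.26 and 0.14, and Cyb5a (listed under its older symbol Cyb5) at 0.69 and -0.27. Nfe2l2, which encodes the oxidative stress factor NRF2, stood at -0.30 and -0.02. Genes of tryptophan and kynurenine metabolism were likewise absent or rare. Ido1, Ido2, Kynu, Aadat and Tph1 had no reads, and Il4i1 had 21 and Afmid 23 over the 4 libraries. The transporter chains that carry tryptophan and kynurenine were expressed, with Slc3a2 at -0.03 and -0.02 and Slc7a5 at -0.20 and 0.01.

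The PARP relatives of Tiparp gave 12 tested genes of 14, with medians of -0.11 with DMAT and 0.11 with CX4945. Parp1, the DNA damage sensor, stood at 0.30 and 0.09, and the tankyrase Tnks2 at -0.05 and 0.00.

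A list of T helper genes linked to the receptor was drawn up with earlier results of these data known. Its share of calls is therefore a description and no test against all genes. In the joint fit 5 of 10 tested genes fell, Il22, Il17a, Il17f, Il23r and Il1r1, 0 rose and 5 did not pass, beside 0.577% of all genes that fell. These calls depend on the fit: Il17f alone of the list passed with DESeq2 and the same block (adjusted p = 6.45e-05) and with edgeR without the block (0.0171). The list medians were -1.10 with DMAT, the value of Il1r1, and -0.71 with CX4945. Il22, the cytokine most closely tied to the receptor, had 62 reads in the control for DMAT and 0 with DMAT, and 78 in the control for CX4945 and 22 with CX4945 (45.7% of its reads were unique). Its BH adjusted p was 0.000255 in edgeR's quasi-likelihood test with the block, 0.999 without it and 0.157 with DESeq2. In the same pairs of libraries Cyp1a1 had 17 and 29 reads, and 13 and 30. Il21, a cytokine gene with the most reads of this list over the 4 libraries, stood at -0.11 with DMAT and 0.00 with CX4945. Ccr6, a chemokine receptor of Th17 cells, had 19 reads in the control for DMAT and 5 with DMAT, and 5 and 4 in the other experiment.

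**Figure D4:**
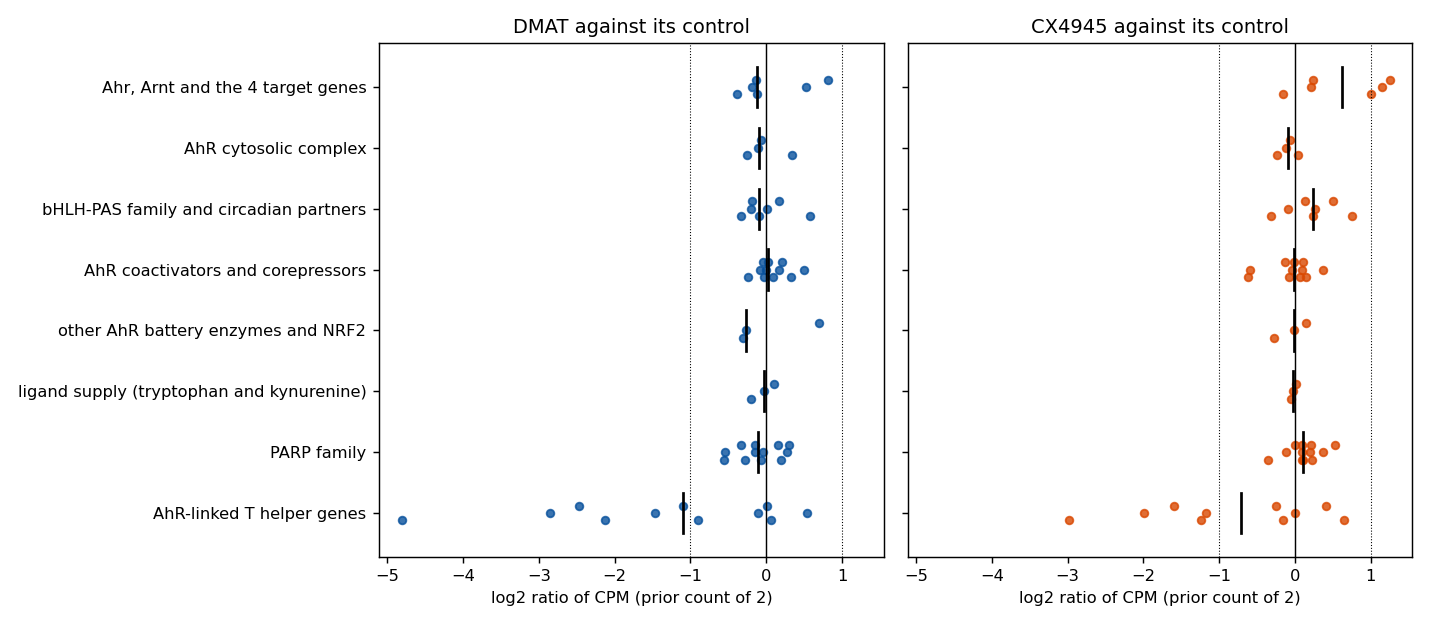
Log2 ratio of CPM (prior count of 2) of each gene with at least 20 reads in a pair, by gene list, with DMAT (left) and CX4945 (right) against their controls; black bars are list medians and dotted lines mark 2-fold. Genes of the complex, the cofactors, the ligand supply and the PARP family lie within the 2-fold lines with both inhibitors, and the T helper list extends far to the left.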

How the data were processed

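RNA-seq count tables of 4 libraries were used, 1 per group. Per the labels' protocols, total RNA was made into TruSeq v2 libraries. The deposited values are whole-number counts of exon reads per feature, which the authors did not normalize; mm9 and CASAVA 1.8.2 are named in the submitters' processing notes, and aligner, annotation, counting rule and strand are not given in the sources used here. The deposited exon length, an other value in bases, gave levels per kilobase. Counts were scaled by TMM (edgeR 4.0.16, R 4.3.3; factors 0.996 to 1.007). The log2 ratios used a prior count of 2 and at least 20 reads in a pair, intervals on ratios are exact conditional 95% intervals, and a count of 0 was given a limit of 3 counts. With 1 library per arm a ratio has no replicate check. The joint fit (edgeR quasi-likelihood, BH, at least 40 reads) took the pair as a block. The titles give the pairing. Over 6969 genes with 200 or more reads, the log2 difference between the 2 controls correlated with that between the 2 inhibitor libraries (r = 0.425, across genes, which are not independent replicates). The SE is the absolute fold change divided by the root of F. No libraries were duplicates (chi-square per degree of freedom 2.56 to 5.63). DESeq2 1.42.0 was an alternative.

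The genes and lists were chosen with earlier results of these data known. Named were all 6 genes, list genes past a threshold, and the 2 genes of each list with most reads. Outside that rule, Npas4, Nfe2l2, cell type markers and genes with few or no reads were also named. One gene was left out of the lists and is not reported here.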

Additional observations from a re-analysis of the deposited data

Results flagged for a closer look

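For 3 of the 6 genes the DMAT library lay on one side of its control and the CX4945 library on the other. Over all genes tested, 4828 of 9649 lay above 0 with DMAT and 4626 of 9358 with CX4945. The share of all genes with opposite signs was not counted, so 3 of 6 is not read as a result about these genes. Cyp1b1 stood at a log2 ratio of -0.12 with DMAT and of 1.15 with CX4945, a difference (DMAT minus CX4945) of -1.27. Ahrr had -0.19 and 0.998, a difference of -1.19, and Tiparp -0.39 and 0.23, a difference of -0.623. Each direction rests on 1 library, doses and experiments differ between the compounds, and the differences were not tested.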

How the results depend on the processing

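The 6 genes have 42 to 490 exon reads in all, and for Cyp1b1 and Ahrr a 2-fold difference is not separable from counting error at this depth. Against the control of the other inhibitor, the count of genes at least 2-fold apart was 1 of 6 with DMAT (Ahr, in place of 0) and 1 with CX4945 (in place of 2). With DESeq2 size factors, unique reads, whole-gene reads or a prior count of 0.5, Ahrr joined with CX4945, which made 3. The 2-fold call of Ahr between the controls was lost with total counts or DESeq2 size factors, which left 0 genes; these alternatives were chosen after seeing the data. In the joint fit 91 genes passed (36 rose, 55 fell), against 1 with no replicate block, 3 with DESeq2 and 52 without the read filter; the cause of the first 2 was not tested, and more genes entered the adjustment in the third. With 1 library left out at a time and no block, 1 to 15 genes passed, with a lone library assumed to vary like the others. Then Ahr ranged from -0.41 (without DMAT) to 1.09, Tiparp from -0.25 to 0.09, turning positive without the control for DMAT (0.0895) or without DMAT (0.0751), and Cyp1a1 from 0.94 to 1.31. Of the 4 to 6 of these genes that had enough reads in each joint fit, 0 passed, with or without the block, and the adjusted p of Cyp1a1 ranged from 0.194 to 1.0.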
